A study of Mus musculus with 20 samples.

Results

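The plasma proteins of blood clotting and of the complement system were followed at the RNA level in mouse liver. The animals were fasted or fed, with or without a deletion of the gene Mcl1 aimed at the liver. The members were a list of 42 gene symbols, 24 of coagulation and 18 of complement. The array measured 39 of them, 22 of coagulation and 17 of complement, among 19505 distinct gene symbols on 22206 probe sets, and each of the 39 had 1 probe set. Klkb1, Cpb2 and C3 were not analysed here, because no probe set carried those symbols.

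The study profiled 20 livers with 1 Affymetrix array each, 5 mice per group. The groups were fasted Mcl1(L-/-), fed Mcl1(L-/-), fasted WT and fed WT, and Mcl1(L-/-) is called Mcl1KO from here on. Fasted mice were kept singly on wire floors without food for 48 hours, fed mice ate freely, and all mice had water. Unless fed mice were housed in the same way, food and housing cannot be told apart in the comparisons of fasted with fed livers. Per the labels, deletion was made by giving AAV-LP1-Cre to Mcl1(F/F) mice, that is, a viral Cre recombinase under LP1, a promoter used for expression in liver, acting on a floxed allele. The sources used here do not give the age or sex of the mice, nor what the WT mice carried or received. MCL-1 is a protein of the BCL-2 family that keeps cells from apoptosis.

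Values are deposited normalised log2 signals, so a difference of 1 is a change of 2-fold. Array medians lay between 3.35 and 3.47, and r between arrays within a group was 0.979 to 0.99 over all probe sets. Mcl1 averaged 6.14 ± 0.25 in fasted Mcl1KO livers, against 7.28 ± 0.09 in fasted WT livers (SD, n = 5 each). Mcl1 averaged 6.09 ± 0.16 in fed Mcl1KO livers, against 7.43 ± 0.15 in fed WT livers. It was lower in Mcl1KO by 1.14 in the fasted state (limma, adjusted p = 4.47e-06) and by 1.34 in the fed state (adjusted p = 5.07e-07), and the groups did not overlap. The 17 measured hepatocyte markers averaged 11.36 in fasted Mcl1KO, 11.44 in fed Mcl1KO, 11.42 in fasted WT and 11.46 in fed WT livers. With fasting, 2 of the 17 rose and 3 fell in Mcl1KO and 3 rose and 2 fell in WT, with Fabp1 the largest (-1.49 and -1.93), while Alb, albumin, had differences of 0.02 and -0.03 that were not called. That is 29.4% of the markers called in each genotype, beside 14.4% of all probe sets in Mcl1KO and 6.79% in WT. Of the 11898 probe sets left after removal of dim ones, 3369 were called in Mcl1KO and 1674 in WT. The tissue was whole liver, where fewer cells of a type and less RNA per cell cannot be told apart.

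Hepatocytes make most of the clotting and complement proteins of plasma and secrete them into blood. In coagulation, the contact proteins and the vitamin K-dependent proteases activate one another in a cascade that ends in thrombin, which turns fibrinogen into fibrin, while antithrombin, protein C and protein S restrain it and plasmin dissolves the clot. In complement, C1 with its proteases, the mannose-binding lectins with theirs, and factor B start the classical, lectin and alternative routes, which meet at C3, and the terminal components assemble into a pore in the target membrane.

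The upstream DNA of 6 members is shown because they mark the range of responses described below, and they were picked after their values were seen: C8a, C8b and C9 of the terminal complement pathway and F11 had large falls with fasting, Fgb stayed level, and Pros1 rose in fasted Mcl1KO livers. Each sequence is the 250 bases before the annotated start, 5′ to 3′ on the gene's own strand, from RefSeq on GRCm38.p6. Their positions are chr4:104876399-104876648 on the minus strand for C8a, chr4:104766067-104766316 on the plus strand for C8b, and chr15:6445096-6445345 on the plus strand for C9. F11 lies at chr8:45262032-45262281 on the minus strand, Fgb at chr3:83049864-83050113 on the minus strand and Pros1 at chr16:62854057-62854306 on the plus strand. Capitals mark the letters of any searched motif found on either strand.
C8a: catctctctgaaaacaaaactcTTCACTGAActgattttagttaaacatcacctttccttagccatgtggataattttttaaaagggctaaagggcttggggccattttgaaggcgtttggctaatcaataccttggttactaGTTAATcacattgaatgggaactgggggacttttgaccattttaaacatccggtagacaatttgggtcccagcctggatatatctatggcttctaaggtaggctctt
C8b: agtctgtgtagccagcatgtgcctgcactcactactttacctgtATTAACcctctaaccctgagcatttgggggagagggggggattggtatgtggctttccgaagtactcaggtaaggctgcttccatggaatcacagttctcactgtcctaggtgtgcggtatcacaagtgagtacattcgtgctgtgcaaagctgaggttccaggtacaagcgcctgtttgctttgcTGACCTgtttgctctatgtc
C9: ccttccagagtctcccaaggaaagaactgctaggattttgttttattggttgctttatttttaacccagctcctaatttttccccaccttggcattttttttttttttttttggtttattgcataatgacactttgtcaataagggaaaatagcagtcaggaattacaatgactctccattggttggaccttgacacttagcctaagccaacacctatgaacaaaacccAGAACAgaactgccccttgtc
F11: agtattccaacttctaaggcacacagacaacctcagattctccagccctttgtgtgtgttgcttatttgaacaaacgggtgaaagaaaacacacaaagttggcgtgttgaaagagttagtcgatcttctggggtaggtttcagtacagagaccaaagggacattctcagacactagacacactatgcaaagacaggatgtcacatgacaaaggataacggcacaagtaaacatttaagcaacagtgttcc
Fgb: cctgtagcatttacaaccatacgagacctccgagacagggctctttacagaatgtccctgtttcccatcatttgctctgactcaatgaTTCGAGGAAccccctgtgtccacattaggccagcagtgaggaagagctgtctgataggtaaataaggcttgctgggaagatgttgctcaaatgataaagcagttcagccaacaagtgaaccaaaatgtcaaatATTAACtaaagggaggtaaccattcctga
Pros1: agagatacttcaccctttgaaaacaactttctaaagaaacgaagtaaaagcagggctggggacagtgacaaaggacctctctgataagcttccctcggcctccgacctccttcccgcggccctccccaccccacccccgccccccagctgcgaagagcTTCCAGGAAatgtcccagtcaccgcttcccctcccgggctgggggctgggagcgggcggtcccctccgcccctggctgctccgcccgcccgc

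The capitals are, in C8a, a STAT3 match at -228 to -220 and an HNF1 match at -107 to -102, counted back from the start. C8b has an HNF1 match at -206 to -201 and a nuclear receptor match at -20 to -15, both read on the opposite strand. C9 has a glucocorticoid receptor match at -21 to -16. Fgb has a STAT3 match at -162 to -154 and an HNF1 match at -29 to -24, and Pros1 has a STAT3 match at -92 to -84. None of the searched letters is in the F11 window. HNF1 is a factor that many hepatocyte genes use, and STAT3 carries the signal of interleukin-6 to acute phase genes.

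In all, 7 patterns were searched by exact letters on both strands in the windows of the 19 coagulation and 12 complement members that had one, and in the windows of 27025 genes. The HNF1 letters GTTAAT were in 31.6% of the coagulation windows, in 41.7% of the complement windows and in 6.52% of all windows. The coagulation genes with them were F13b, Fga, Fgb, Proz, Vtn and Habp2, and the complement genes were C4bp, Hc, C8b, C8a and C1ra. The STAT3 letters TTCNNNGAA were in 21.1% (Fga, Fgb, Pros1, F9), 16.7% (C8a, Masp2) and 7.18% in the same order. The glucocorticoid receptor letters AGAACA were in 31.6% and 25.0% of the windows of the classes, against 16.2% of all, and the nuclear receptor letters AGGTCA in 31.6% and 25.0%, against 13.8%. HNF4A letters AGTCCA (5.26%, 8.33% and 11.6%), C/EBP letters TTGCG (5.26%, 0.0% and 14.6%) and TATAAA (5.26%, 8.33% and 13%) were found in fewer member windows than in all windows. No pattern's letters contain another's, and no matches share bases in the 6 windows shown. A match is a description of letters only.

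Several members lie side by side in the RefSeq gene order. C8b and C8a are neighbours on chromosome 4, C1ra and C1s1 on chromosome 6, and Cfb and C2 on chromosome 17. The fibrinogen genes Fgg, Fga and Fgb stand in a row on chromosome 3, and F7, F10 and Proz on chromosome 8. Hrg and Kng1 lie on chromosome 16 with 1 gene between them. Neighbours were not always called together: Proz fell in fasted Mcl1KO livers and F7 and F10 were not called there.

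The first question was how these RNAs differed between fasted and fed livers. Most complement RNAs fell after the fast in either genotype, and most coagulation RNAs were not called. In Mcl1KO livers 16 of 17 complement members fell, all but Masp2, and none had a positive difference, while 5 of 22 coagulation members fell and 3 rose. Over all probe sets 14.4% were called in this comparison, 8.2% higher and 6.25% lower (limma with Benjamini-Hochberg adjustment over all probe sets, called at an adjusted p under 0.05). All measured members lay at percentile 87.6 or higher of mean signal, while all probe sets include many dim ones. Of the 11898 probe sets left after removal of dim ones, 3369 were called when fitted alone. The median log2 difference, fasted minus fed, was -0.83 over the complement members, -0.17 over the coagulation members and 0.00 over all probe sets. Fasted and fed Mcl1KO arrays did not overlap for 15 complement members, all lower, and for 9 coagulation members, 6 of them lower, against 10.2% of all probe sets.

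In WT livers 12 of 17 complement members fell and 1, Masp2, had a positive difference, which was not called, while 2 of 22 coagulation members fell and 1 rose. The share of all probe sets called was 6.79%, with 3.1% higher and 3.68% lower. With dim probe sets removed, 1674 of 11898 were called. The median fasting difference was -0.57 over complement, -0.07 over coagulation and 0.02 over all probe sets. Arrays of the fasted and fed WT groups did not overlap for 12 complement members, all lower, and for 6 coagulation members, 4 of them lower, against 7.36% of all probe sets. In both genotypes 12 complement members and 2 coagulation members, F11 and Habp2, fell. Some members share sequence with close relatives that the array may not separate, namely C4b with C4a, C1ra with C1rb, C1s1 with C1s2 and Kng1 with Kng2.

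**Figure D1:**
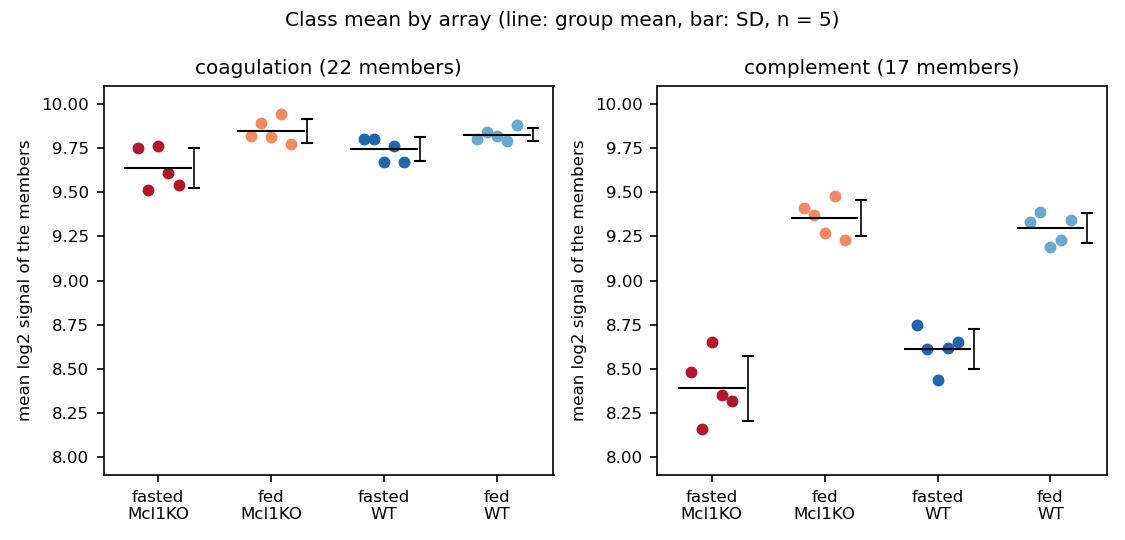
Mean log2 signal (y axis) of the 17 complement and the 22 coagulation members on each array, with 1 point per mouse, by group (x axis: fasted Mcl1KO, fed Mcl1KO, fasted WT, fed WT), with a line at the group mean and a bar of 1 SD to each side. Fasted and fed arrays are apart for complement in both genotypes, with 8.16 to 8.65 against 9.23 to 9.48 in Mcl1KO, and closer together for coagulation.

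Array by array, the mean of the complement members was 8.48, 8.16, 8.65, 8.35 and 8.32 in fasted Mcl1KO livers, against 9.41, 9.37, 9.27, 9.48 and 9.23 in fed Mcl1KO livers. It was 8.75, 8.61, 8.44, 8.62 and 8.65 in fasted WT livers, against 9.33, 9.39, 9.19, 9.23 and 9.34 in fed WT livers. Every fasted liver of either genotype was below every fed liver. For the coagulation members the mean was 9.75, 9.51, 9.76, 9.61 and 9.54 in fasted Mcl1KO livers, against 9.82, 9.89, 9.81, 9.94 and 9.77 in fed Mcl1KO livers. In WT it was 9.80, 9.80, 9.67, 9.76 and 9.67 in fasted livers, against 9.80, 9.84, 9.82, 9.79 and 9.88 in fed livers. The coagulation means of the WT groups overlapped, and those of the Mcl1KO groups were apart, with their nearest arrays at 9.76 and 9.77.

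**Figure D2:**
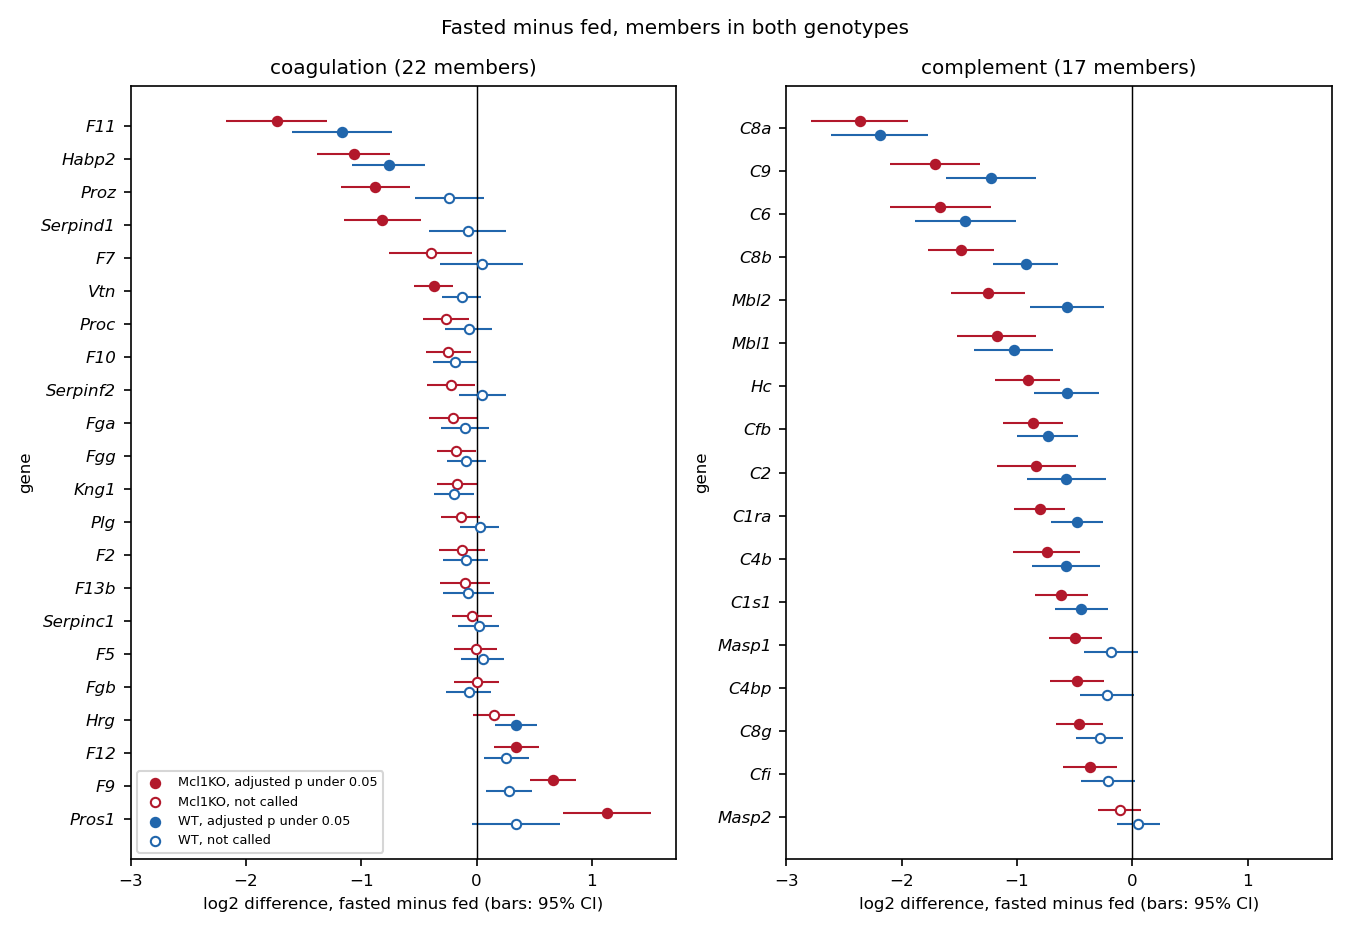
Log2 difference, fasted minus fed (x axis), with its 95% confidence interval for each measured member (y axis), in Mcl1KO above WT. Filled points are members called at an adjusted p under 0.05. C8a is farthest to the left in both genotypes (-2.36 in Mcl1KO, -2.19 in WT) and Pros1 farthest to the right in Mcl1KO (1.13).

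The terminal complement genes, whose products form the membrane pore, had the deepest falls. Of 6 measured, 6 fell in Mcl1KO and 5 in WT livers, with median differences of -1.58 and -1.08. Over all probe sets 6.25% fell in Mcl1KO and 3.68% in WT. C8a, which encodes the alpha chain of C8, had signals of 5.87, 5.82, 6.17, 5.31 and 5.31 in fasted Mcl1KO livers, against 8.11, 8.20, 7.92, 8.18 and 7.88 in fed Mcl1KO livers. C8a signals were 6.08, 5.64, 4.95, 5.59 and 6.49 in fasted WT livers, against 7.74, 8.06, 7.93, 7.86 and 8.10 in fed WT livers. All fasted arrays were more than 1 log2 unit under all fed ones. The fall was 2.36 ± 0.20 in Mcl1KO (log2, SE from limma, adjusted p = 1.89e-08), or 5.15-fold, and 2.19 ± 0.20 in WT (adjusted p = 1.46e-07), or 4.56-fold.

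C9, the component that polymerises to form the wall of the pore, gave 8.58, 7.58, 8.40, 8.84 and 8.17 in fasted Mcl1KO livers, against 10.39, 9.99, 9.83, 10.02 and 9.89 in fed Mcl1KO livers. In WT, C9 gave 8.21, 8.75, 8.35, 8.91 and 8.62 in fasted livers, against 10.15, 10, 9.51, 9.71 and 9.62 in fed livers. Groups did not overlap in either genotype. C9 fell by 1.71 ± 0.19 in Mcl1KO (adjusted p = 6.66e-07), 3.27-fold, and by 1.23 ± 0.19 in WT (adjusted p = 1.27e-04), 2.34-fold.

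C6, which joins the complex after C5b, had signals of 9.18, 8.59, 8.79, 7.82 and 9.38 in fasted Mcl1KO livers, against 10.68, 10.44, 10.28, 10.56 and 10.13 in fed Mcl1KO livers. C6 read 8.54, 8.28, 8.16, 8.84 and 8.35 in fasted WT livers, against 10.24, 10.06, 9.55, 9.65 and 9.92 in fed WT livers. Fasted arrays were again below all fed ones, and the fasted Mcl1KO arrays were spread over a wide range (SD 0.61, the largest of any complement member in that group). C6 fell by 1.67 ± 0.21 in Mcl1KO (adjusted p = 5.17e-06) and by 1.45 ± 0.21 in WT (adjusted p = 7.48e-05).

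C8b, the beta chain of C8 and the neighbour of C8a, read 8.04, 7.86, 8.40, 7.88 and 8.23 in fasted Mcl1KO livers, against 9.79, 9.59, 9.38, 9.67 and 9.41 in fed Mcl1KO livers. C8b signals in WT were 8.79, 8.60, 8.49, 8.98 and 8.64 in fasted livers, against 9.97, 9.79, 9.24, 9.51 and 9.60 in fed livers. The fasted Mcl1KO arrays were the lowest of the 4 groups and overlapped with none of them. C8b fell by 1.49 ± 0.14 in Mcl1KO (adjusted p = 4.93e-08) and by 0.93 ± 0.14 in WT (adjusted p = 8.67e-05).

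Hc, which encodes C5, averaged 8.58 ± 0.28 in fasted and 9.49 ± 0.20 in fed Mcl1KO livers, a fall of 0.91 (adjusted p = 3.39e-05). Hc averaged 8.69 ± 0.24 in fasted and 9.26 ± 0.10 in fed WT livers, a fall of 0.57 (adjusted p = 0.00893). C8g, the gamma chain of C8, which has its gene elsewhere, fell by 0.46 in Mcl1KO (adjusted p = 0.00172), while its difference of -0.28 in WT was not called (adjusted p = 0.0968) although the WT arrays did not overlap. Among the C8 chains the fasting difference was -2.36, -1.49 and -0.46 in Mcl1KO for alpha, beta and gamma, and -2.19, -0.93 and -0.28 in WT.

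Genes of the classical and lectin routes fell with fasting, by less than the deepest terminal members. Of 8 measured, 7 fell in Mcl1KO livers and 6 in WT livers, with medians of -0.77 and -0.52, beside 6.25% and 3.68% of all probe sets that fell. Mbl1, which encodes mannose-binding lectin A, read 7.22, 7.01, 7.24, 7.16 and 6.81 in fasted Mcl1KO livers, against 8.17, 7.87, 8.38, 8.62 and 8.28 in fed Mcl1KO livers. Mbl1 read 7.47, 7.21, 7.10, 6.63 and 7.37 in fasted WT livers, against 7.79, 8.50, 8.07, 8.09 and 8.50 in fed WT livers. No fasted array reached a fed one, and the fall was 1.18 ± 0.16 in Mcl1KO (adjusted p = 1.61e-05) and 1.03 ± 0.16 in WT (adjusted p = 2.02e-04).

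Mbl2, which encodes mannose-binding lectin C, had 8.57, 7.93, 8.91, 8.44 and 8.27 in fasted Mcl1KO livers, against 9.47, 10.12, 9.64, 9.70 and 9.46 in fed Mcl1KO livers. Mbl2 had 9.35, 9.09, 8.98, 9.27 and 9.01 in fasted WT livers, against 9.46, 9.89, 9.95, 9.59 and 9.65 in fed WT livers. The fasted Mcl1KO arrays were below all arrays of the other 3 groups. Mbl2 fell by 1.26 ± 0.16 in Mcl1KO (adjusted p = 3.44e-06) and by 0.57 ± 0.16 in WT (adjusted p = 0.0262), and the WT call was lost without any 1 of 5 arrays (adjusted p up to 0.0789).

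The lectin-associated protease genes differed from the lectins. Masp1 averaged 7.62 ± 0.23 in fasted and 8.11 ± 0.12 in fed Mcl1KO livers, and fell by 0.50 (adjusted p = 0.00294). Its WT difference of -0.19 was not called (adjusted p = 0.427). Masp2, which cleaves C4 and C2, was the complement member without a fasting call in either genotype, with differences of -0.11 in Mcl1KO (adjusted p = 0.529) and 0.05 in WT (adjusted p = 0.855).

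In the classical route, the neighbours C1ra and C1s1, which encode the proteases of C1, fell together. C1ra fell by 0.80 in Mcl1KO (adjusted p = 1.10e-05) and by 0.48 in WT (adjusted p = 0.00603). C1s1 fell by 0.62 in Mcl1KO (adjusted p = 3.39e-04) and by 0.44 in WT (adjusted p = 0.0143, or 0.0547 without the third fasted WT array). Their relatives C1rb and C1s2 had differences of -0.80 and -0.55 in Mcl1KO, both called, and of -0.38 (adjusted p = 0.0385, lost on leaving out any 1 of 7 arrays) and -0.24 (not called) in WT.

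C4b, whose product C1s cleaves, fell by 0.74 in Mcl1KO (adjusted p = 5.99e-04) and by 0.58 in WT (adjusted p = 0.0125), and its relative C4a fell by 0.74 and 0.53 (the WT call lost on leaving out any 1 of 7 arrays, adjusted p up to 0.101). C2, the protease partner of C4b, fell by 0.83 in Mcl1KO (adjusted p = 8.63e-04). In WT its difference of -0.57 had an adjusted p of 0.0353, with overlapping arrays, and the call was lost on leaving out any 1 of 8 of the arrays (adjusted p up to 0.0996). Cfb, factor B of the alternative route and the neighbour of C2, averaged 8.58 ± 0.19 in fasted and 9.44 ± 0.17 in fed Mcl1KO livers, a fall of 0.86 (adjusted p = 3.02e-05). Cfb averaged 8.75 ± 0.19 in fasted and 9.49 ± 0.23 in fed WT livers, a fall of 0.74 (adjusted p = 4.50e-04).

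The fluid-phase regulators were called in Mcl1KO livers and not in WT livers. Cfi, the protease factor I that inactivates C3b and C4b, fell by 0.37 in Mcl1KO (adjusted p = 0.0283, and 0.0812, 0.106 and 0.0803 without the second or the fifth fasted or the second fed Mcl1KO array). In WT the Cfi difference was -0.21 (adjusted p = 0.351). C4bp, the cofactor of factor I, fell by 0.48 in Mcl1KO (adjusted p = 0.00392), and its WT difference was -0.22 (adjusted p = 0.322). The difference between the genotypes was -0.16 for Cfi and -0.26 for C4bp and was not called for either (adjusted p = 0.777 and 0.569).

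In coagulation the largest fall was that of F11, which encodes factor XI of the contact route. F11 read 6.09, 5.78, 6.65, 5.71 and 5.25 in fasted Mcl1KO livers, against 7.83, 7.89, 7.47, 7.52 and 7.44 in fed Mcl1KO livers. F11 signals were 6.84, 6.01, 6.15, 6.27 and 5.66 in fasted WT livers, against 7.70, 7.10, 7.18, 7.39 and 7.38 in fed WT livers. Fasted and fed arrays were apart in both genotypes. The fall was 1.73 ± 0.21 in Mcl1KO (adjusted p = 2.53e-06), 3.33-fold, and 1.16 ± 0.21 in WT (adjusted p = 7.51e-04), 2.24-fold. The other measured contact genes went differently: F12, factor XII, rose by 0.34 in Mcl1KO (adjusted p = 0.0136) and had an uncalled difference of 0.26 in WT (adjusted p = 0.118), and Kng1, which encodes kininogen, had uncalled differences of -0.17 in Mcl1KO (adjusted p = 0.216) and -0.19 in WT (adjusted p = 0.221). An ordinary linear model called F12 in WT (adjusted p = 0.0478) and Kng1 in Mcl1KO (0.0341) and in WT (0.0348). Kng1 was also called in Mcl1KO after quantile normalisation (difference -0.29, adjusted p = 0.0202).

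Habp2, a plasma protease that binds hyaluronan and can activate factor VII, had signals of 8.17, 7.54, 8.22, 8.24 and 7.51 in fasted Mcl1KO livers, against 8.97, 9.09, 8.99, 9.01 and 8.94 in fed Mcl1KO livers. Habp2 had 8.24, 8.25, 7.49, 8.16 and 8.02 in fasted WT livers, against 8.61, 8.82, 8.86, 8.74 and 8.93 in fed WT livers. The fasted arrays of both genotypes were below the fed ones and overlapped with each other. Habp2 fell by 1.06 ± 0.15 in Mcl1KO (adjusted p = 2.43e-05) and by 0.76 ± 0.15 in WT (adjusted p = 0.00233).

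Among the vitamin K-dependent proteins 2 of 7 rose and 1 fell in fasted Mcl1KO livers, beside 8.2% and 6.25% of all probe sets. In WT livers limma called 0 of the 7, beside 6.79% of all probe sets. There F9 had an unadjusted p under 0.05 and was called in an ordinary linear model (adjusted p = 0.0365). Pros1, which encodes protein S, the cofactor of activated protein C, read 8.56, 8.82, 7.54, 7.72 and 7.95 in fasted Mcl1KO livers, against 6.81, 7.15, 6.81, 7.21 and 6.96 in fed Mcl1KO livers. Pros1 read 6.89, 7.16, 6.95, 6.97 and 7.0 in fasted WT livers, against 6.81, 6.90, 6.74, 6.25 and 6.58 in fed WT livers. The fasted Mcl1KO arrays were above all 15 others, and the WT groups overlapped. Pros1 rose by 1.13 ± 0.18 in Mcl1KO (adjusted p = 1.01e-04), 2.20-fold, and its WT difference was 0.34 ± 0.18 (adjusted p = 0.364).

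F9, factor IX, the protease that activates factor X, averaged 8.45 ± 0.17 in fasted and 7.78 ± 0.08 in fed Mcl1KO livers, and rose by 0.67 (adjusted p = 2.53e-05). F9 averaged 8.15 ± 0.13 in fasted and 7.87 ± 0.08 in fed WT livers, an uncalled difference of 0.28 (adjusted p = 0.0836), with no overlap of the arrays. Proz, which encodes protein Z, a cofactor for the inhibition of factor Xa, went the other way. Proz had 9.14, 8.33, 9.48, 9.02 and 8.69 in fasted Mcl1KO livers, against 9.86, 9.80, 9.77, 9.91 and 9.71 in fed Mcl1KO livers. It had 9.80, 9.71, 9.56, 9.44 and 9.54 in fasted WT livers, against 9.72, 9.80, 9.90, 9.90 and 9.91 in fed WT livers. The Mcl1KO groups did not overlap and the WT groups did. Proz fell by 0.88 ± 0.15 in Mcl1KO (adjusted p = 1.21e-04), and its WT difference was -0.24 ± 0.15 (adjusted p = 0.441).

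The other vitamin K-dependent members were not called with fasting in either genotype by the model used throughout. F7, factor VII, had differences of -0.40 in Mcl1KO (adjusted p = 0.153) and 0.04 in WT (adjusted p = 0.948), and its fasted Mcl1KO arrays were scattered (7.9, 6.75, 7.76, 6.90 and 7.41). Without the first of those arrays the Mcl1KO difference was -0.54 with an adjusted p of 0.0356. F10, factor X, had differences of -0.25 (adjusted p = 0.0902) and -0.18 (adjusted p = 0.331). Proc, protein C, had -0.26 (adjusted p = 0.0761) and -0.07 (adjusted p = 0.813). The Mcl1KO differences of F10 and Proc were each called under 4 of 29 alternative analyses. For F10 these included quantile normalisation (adjusted p = 0.0418), and for both an ordinary linear model (0.0330 and 0.0322). F2, prothrombin, had -0.12 (adjusted p = 0.495) and -0.09 (adjusted p = 0.708).

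Of the anticoagulant serpins, Serpind1 fell in Mcl1KO and Serpinc1 stayed level. Serpind1, which encodes heparin cofactor II, read 10.11, 9.07, 10.34, 10.17 and 9.74 in fasted Mcl1KO livers, against 10.70, 10.86, 10.80, 10.62 and 10.53 in fed Mcl1KO livers. Serpind1 read 10.56, 10.58, 10.53, 10.70 and 10.38 in fasted WT livers, against 10.63, 10.59, 10.62, 10.50 and 10.78 in fed WT livers. The fasted Mcl1KO arrays lay below all others with an SD of 0.51, against 0.13, 0.11 and 0.10 in fed Mcl1KO, fasted WT and fed WT. Serpind1 fell by 0.82 ± 0.16 in Mcl1KO (adjusted p = 7.93e-04), and its WT difference was -0.08 ± 0.16 (adjusted p = 0.887). Serpinc1, which encodes antithrombin, had differences of -0.04 in Mcl1KO (95% interval -0.21 to 0.14) and 0.02 in WT (-0.16 to 0.19).

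The fibrinogen chains had no fasting call by the model used throughout. Fgb, the beta chain, differed by 0.00 in Mcl1KO (95% interval -0.19 to 0.20) and by -0.07 in WT (-0.26 to 0.13). Fgg, the gamma chain, differed by -0.18 in Mcl1KO (adjusted p = 0.183), where its arrays did not overlap, and by -0.09 in WT (adjusted p = 0.665). The Mcl1KO difference of Fgg was called with trend and robust moderation (adjusted p = 0.0376) and in an ordinary linear model (0.0121). Fga, the alpha chain, differed by -0.20 (adjusted p = 0.225) and -0.10 (adjusted p = 0.71). F5, the cofactor of factor Xa, differed by -0.01 in Mcl1KO (-0.19 to 0.18) and 0.05 in WT (-0.14 to 0.24). F13b, the carrier subunit of the fibrin crosslinking enzyme, differed by -0.10 and -0.07 (adjusted p = 0.665 and 0.826).

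Hrg, which encodes a histidine-rich plasma glycoprotein that binds plasminogen and heparin, was the coagulation member that rose in WT livers. Hrg had 11.17, 11.02, 11.17, 10.95 and 11.11 in fasted Mcl1KO livers, against 11.01, 10.79, 10.83, 11.09 and 10.95 in fed Mcl1KO livers. It had 11.13, 11.25, 11.15, 11.26 and 11.19 in fasted WT livers, against 10.98, 10.86, 10.76, 10.88 and 10.79 in fed WT livers. The Mcl1KO groups overlapped and the WT groups were apart. The Hrg difference was 0.15 ± 0.09 in Mcl1KO (adjusted p = 0.318), and in WT it rose by 0.34 ± 0.09 (adjusted p = 0.0176, or 0.0520 without the third fed WT array). Vtn, vitronectin, which binds heparin and the terminal complement complex, fell by 0.37 in Mcl1KO (adjusted p = 0.00227), and its WT difference was -0.13 (adjusted p = 0.461). Plg, plasminogen, and Serpinf2, the plasmin inhibitor, had differences of -0.14 and -0.22 in Mcl1KO and of 0.03 and 0.05 in WT, none of them called.

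**Figure D3:**
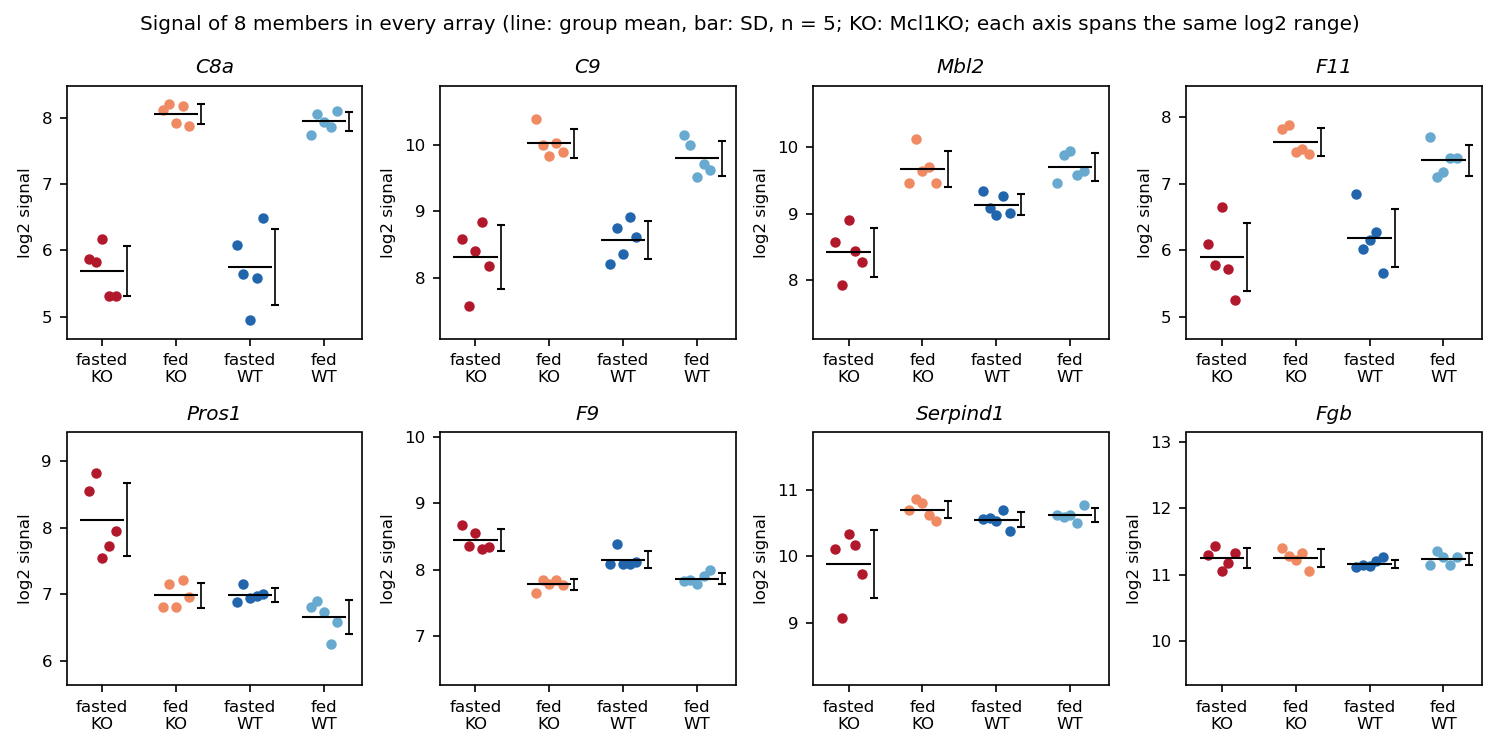
Log2 signal (y axis, the same span in every panel) of C8a, C9, Mbl2, F11, Pros1, F9, Serpind1 and Fgb on each array, with 1 point per mouse, by group (x axis, KO for Mcl1KO), with a line at the group mean and a bar of 1 SD to each side. C8a, C9 and F11 are low in all fasted livers, Pros1 is high and Serpind1 low in fasted Mcl1KO livers, and the 4 groups of Fgb overlap.

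The classes also differed in signal range, which bears on how large a difference the array can show. The mean over all arrays was 11 or more for 8 coagulation members and 0 complement members, on an array whose highest value was 12.56. Among members with a mean under 10, the median fasting difference was -0.86 over 15 complement members and -0.22 over 11 coagulation members in Mcl1KO, and -0.57 and 0.04 in WT. In that range 15 complement members fell in Mcl1KO and 12 in WT, and 0 rose. Of the 11 coagulation members, 3 fell and 3 rose in Mcl1KO, and 2 fell and 0 rose in WT. Over all probe sets 14.4% were called in Mcl1KO and 6.79% in WT. Whether signal range has a part in the difference between the classes was not tested beyond this division.

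The next question was whether Mcl1 loss changed the RNAs with food present. In fed livers 0 of 39 members were called between Mcl1KO and WT, against 0.036% of all probe sets, 0.0225% higher and 0.0135% lower (limma, 2 members with an unadjusted p under 0.05, and 0 called with 4 unadjusted in an ordinary linear model). The medians were 0.05 over complement and 0.00 over coagulation. Arrays of the fed genotypes did not overlap for 1 member, Habp2, higher in Mcl1KO (difference 0.21, adjusted p = 0.919), against 1.57% of all probe sets. The 2 members were C6, with a difference of 0.53 (95% interval 0.10 to 0.97, adjusted p = 0.651), and Fga, with -0.37 (95% interval -0.58 to -0.16, adjusted p = 0.336).

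In fasted livers Mcl1KO and WT did differ for several members. Among coagulation members 1 was higher (Pros1) and 3 were lower (Proz, Serpind1 and Fga) in fasted Mcl1KO livers, and among complement members 0 were higher and 3 were lower (Mbl2, C8b and Masp2). Of all probe sets 4.99% were called, 3.32% higher and 1.67% lower. With dim probe sets removed, 1297 of 11898 were called. The medians, Mcl1KO minus WT, were -0.12 over coagulation, -0.18 over complement and -0.02 over all probe sets, and 33 of 39 members had a negative difference. The fasted genotypes did not overlap for 1 coagulation member that was higher and 3 that were lower in Mcl1KO, and for 4 complement members that were lower, against 3.9% of all probe sets.

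Pros1 was higher by 1.13 ± 0.18 in fasted Mcl1KO than in fasted WT livers (adjusted p = 0.00164), 2.19-fold. Proz was lower by 0.68 ± 0.15 (adjusted p = 0.00842, with overlapping arrays) and Serpind1 by 0.66 ± 0.16 (adjusted p = 0.0192). When only the fasted groups were fitted, Proz and Serpind1 had adjusted p = 0.0702 and 0.0997, and Serpind1 had 0.0509 without the fifth fasted Mcl1KO array. Fga read 11.15, 11.27, 10.99, 11.14 and 11.26 in fasted Mcl1KO livers, against 11.65, 11.59, 11.54, 11.73 and 11.66 in fasted WT livers. It read 11.38, 11.33, 11.17, 11.72 and 11.21 in fed Mcl1KO livers, against 11.70, 11.76, 11.66, 11.68 and 11.86 in fed WT livers. The fasted groups were apart and the fed groups overlapped by the fourth Mcl1KO array. Fga was lower by 0.47 ± 0.10 in the fasted state (adjusted p = 0.00842), while Fgb and Fgg, its neighbours and partners in the protein, differed by 0.09 (adjusted p = 0.698) and -0.09 (adjusted p = 0.610).

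Mbl2 was lower in fasted Mcl1KO than in fasted WT livers by 0.72 ± 0.16 (adjusted p = 0.00929) and C8b by 0.62 ± 0.14 (adjusted p = 0.0112), and neither overlapped. Masp2 read 10.55, 10.35, 10.56, 10.48 and 10.49 in fasted Mcl1KO livers, against 10.81, 10.88, 10.88, 10.89 and 10.67 in fasted WT livers. In fed livers Masp2 read 10.72, 10.64, 10.54, 10.65 and 10.43 in Mcl1KO, against 10.92, 10.77, 10.64, 10.84 and 10.70 in WT. It was lower in fasted Mcl1KO by 0.34 ± 0.09 (adjusted p = 0.0289), a call that was lost on leaving out any 1 of 6 arrays (adjusted p up to 0.0862), after median centring (0.0501) and with the fasted groups alone (0.0974). C8a, C9, C6 and F11, the deepest fasting falls, did not have a called difference between the fasted genotypes (-0.06, -0.26, 0.32 and -0.29, adjusted p = 0.928, 0.524, 0.469 and 0.517).

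**Figure D4:**
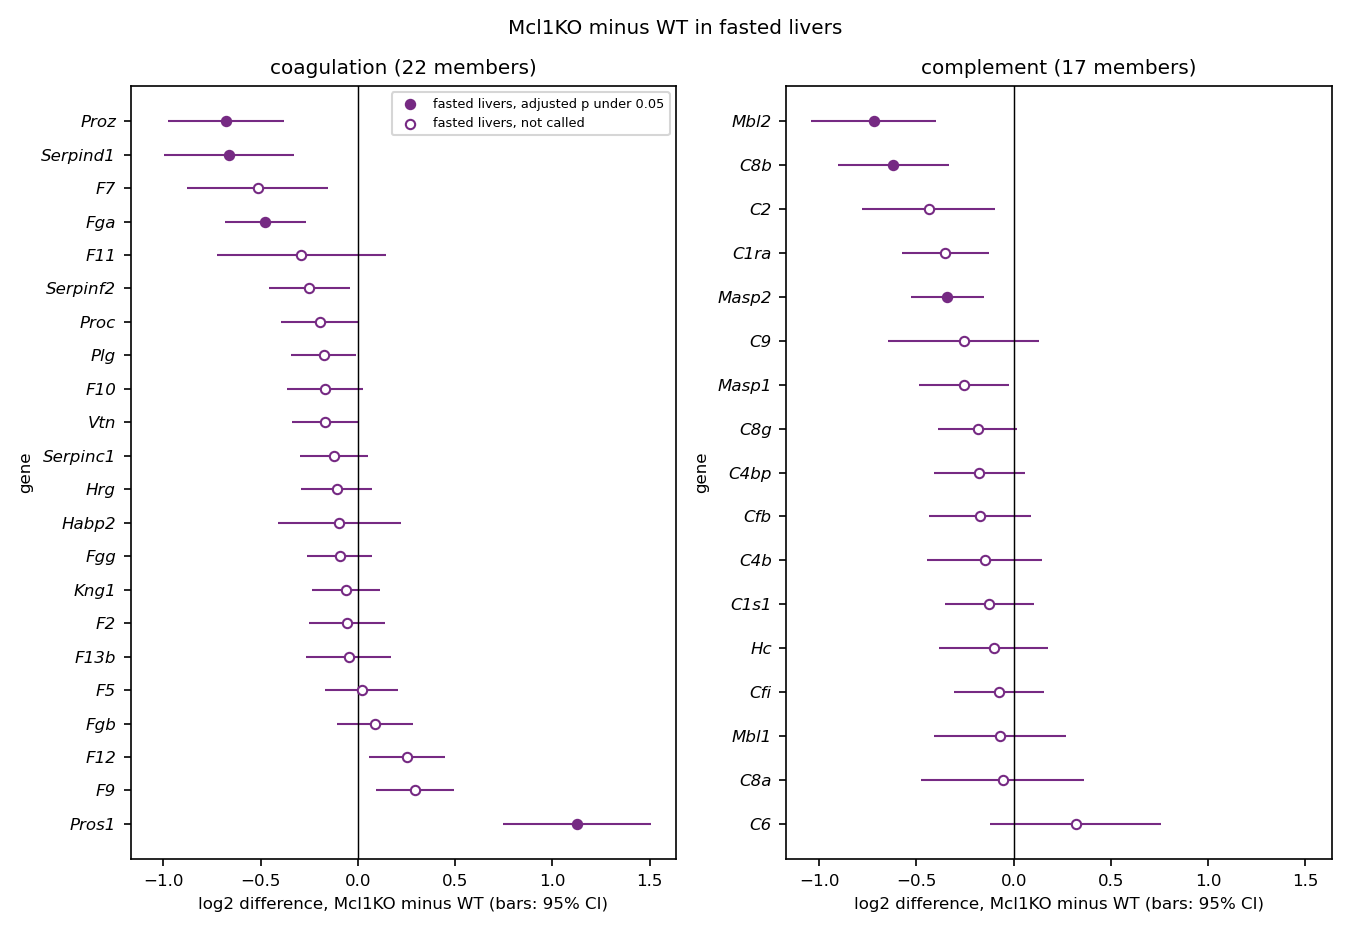
Log2 difference, Mcl1KO minus WT in fasted livers (x axis), with its 95% confidence interval for each measured member (y axis), with filled points for called members. Pros1 (1.13) is the called member above 0, and Mbl2 (-0.72), Proz (-0.68), Serpind1 (-0.66), C8b (-0.62), Fga (-0.47) and Masp2 (-0.34) are those below.

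Whether fasting acted differently in the genotypes was tested by the interaction, the fasting difference in Mcl1KO minus that in WT. It was called for 0 of 39 members, against 0.135% of all probe sets, 0.0811% with a positive and 0.054% with a negative value (limma, 8 members with an unadjusted p under 0.05, and 0 called with 12 unadjusted in an ordinary linear model). The sign was negative for 34 of 39 members, all 17 complement members among them, with medians of -0.22 over complement, -0.10 over coagulation and -0.01 over all probe sets. The largest were 0.80 for Pros1 (95% interval 0.26 to 1.33, adjusted p = 0.219), -0.74 for Serpind1 (-1.21 to -0.27, 0.181), -0.69 for Mbl2 (-1.15 to -0.24, 0.202), -0.64 for Proz (-1.07 to -0.22, 0.203), -0.57 for F11 (-1.18 to 0.04, 0.485) and -0.56 for C8b (-0.96 to -0.16, 0.239). Without the third fasted Mcl1KO array, which had the highest complement mean of its group, Proz, Serpind1 and Mbl2 were called (adjusted p = 0.0280, 0.0490 and 0.0466). For Fga and Masp2, called between the fasted genotypes, the interaction was -0.105 (adjusted p = 0.856) and -0.162 (0.683). Their uncalled differences between the fed genotypes had the same sign as in the fast (-0.37 and -0.18).

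Replicate spread was widest, by median, in fasted Mcl1KO livers. The median SD over complement members was 0.27 in fasted Mcl1KO, 0.17 in fed Mcl1KO, 0.19 in fasted WT and 0.14 in fed WT livers, and over coagulation members 0.14, 0.13, 0.10 and 0.08. All probe sets had medians of 0.21, 0.19, 0.20 and 0.19. The model shares 1 spread over the groups, so its SE can be too small for members such as Pros1, Serpind1 and Proz in fasted Mcl1KO livers.

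Genes of the same pathways outside the 42 were also measured. Of 27 other coagulation genes, 3 fell in Mcl1KO and 6 in WT livers with fasting, and no gene rose. That is 11.1% and 22.2% of the list called, beside 14.4% and 6.79% of all probe sets. Ggcx, the carboxylase that makes the vitamin K-dependent proteins functional, fell by 1.13 in Mcl1KO (adjusted p = 3.11e-06) and by 0.55 in WT (adjusted p = 0.0155). Serpina10, the inhibitor for which protein Z is the cofactor, fell by 0.93 in Mcl1KO (adjusted p = 6.59e-06) and by 0.63 in WT (adjusted p = 0.00152). Hgfac, a protease related to factor XII, fell by 0.46 in Mcl1KO (adjusted p = 0.00973) and was lower in fasted Mcl1KO than in fasted WT by 0.45 (adjusted p = 0.0291, and up to 0.0903 on leaving out any 1 of 5 arrays). In WT, Gas6, a vitamin K-dependent ligand, fell by 0.86, F8, factor VIII, which liver endothelium makes, by 0.66, and Tfpi2, a protease inhibitor, by 0.60 (adjusted p = 0.0100, 0.0254 and 0.0405). The F8 call was lost on leaving out any 1 of 4 arrays (adjusted p up to 0.0837) and the Tfpi2 call on leaving out any 1 of 8 (up to 0.113).

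Of 32 other complement genes, 5 fell in Mcl1KO and 9 in WT livers with fasting, and no gene rose. That is 15.6% and 28.1% of the list called, beside 14.4% and 6.79% of all probe sets. In Mcl1KO the largest were C1rb (-0.80), Cd59b (-0.79), a membrane inhibitor of the pore, C4a (-0.74) and Colec12 (-0.65), a collectin. The called C1rb, C4a and C1s2 are the relatives that the array may not separate from the members C1ra, C4b and C1s1. In WT they were Cd55 (-1.03, lost on leaving out any 1 of 6 arrays, adjusted p up to 0.118), which speeds the decay of the convertases, Vsig4 (-0.94), a macrophage receptor for C3b, Fcna (-0.78), a ficolin, and Colec12 (-0.69). Vsig4, Fcna, C1qc and C1qa were higher in fasted Mcl1KO than in fasted WT livers by 1.22, 0.84, 0.79 and 0.70 (adjusted p = 1.46e-04, 0.00350, 0.0153 and 0.0331), and the interaction was called for Vsig4 (1.26, adjusted p = 0.0220) and Fcna (1.09, adjusted p = 0.0445). The C1qa call was lost on leaving out any 1 of 7 arrays (adjusted p up to 0.102), the Vsig4 interaction on leaving out any 1 of 3 (up to 0.0551) and the Fcna interaction on leaving out any 1 of 17 (up to 0.0905).

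Vsig4, Fcna and the C1q genes are also on the list of Kupffer cell markers, the resident macrophages of the liver. Of 15 such markers measured, fasting lowered 3 and raised 1 in Mcl1KO and lowered 6 in WT, and 7 were higher and 0 lower in fasted Mcl1KO than in fasted WT. That is 26.7%, 40% and 46.7% of the list called, beside 14.4%, 6.79% and 4.99% of all probe sets. Their mean per array ranged over 5.17 to 5.85 in fasted Mcl1KO, 5.47 to 5.79 in fed Mcl1KO, 4.69 to 5.10 in fasted WT and 5.34 to 5.85 in fed WT livers. Fasted and fed ranges overlapped in Mcl1KO and did not in WT. Of 14 stellate cell markers, 2 were higher and 0 lower in fasted Mcl1KO than in fasted WT (14.3% called, median difference 0.12). Of 16 sinusoidal endothelial markers, 1 was higher and 0 lower in fasted Mcl1KO than in fasted WT (6.25% called). The median difference of the endothelial markers was 0.29 (12 of 16 positive), against 0.68 over the Kupffer cell markers (15 of 15 positive). The interaction was positive for 14 of the 16 endothelial markers (median 0.55, 0 called) and for all 15 Kupffer cell markers (median 0.59, 2 called). The part of Kupffer, endothelial and stellate cells in the members' differences was not tested.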

How the data were processed

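Liver RNA of 20 mice was measured with 1 Affymetrix array each (GeneChip WT PLUS kit, per the labels' protocols). The deposited values are log2 signals per probe set, and the submitters' processing notes name RMA and Partek 7.0. The log base is not stated and was taken as log2 from the method and the range of 1.34 to 12.56, and the sources used here give neither RMA settings nor the annotation version. RMA forces arrays onto 1 distribution, which hides any shift that most RNAs share, and it compresses differences of very dim and very bright probe sets. The number of arrays limits the precision (median SE 0.14 for a difference of groups and 0.19 for the interaction).

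Groups came from the labels. Symbols came from the platform annotation, where 19572 of 22206 probe sets had 1 symbol and 2634 had none. limma 3.58.1 in R 4.3.3 fitted 1 mean per group to all 20 arrays, with eBayes moderation and Benjamini-Hochberg adjustment over all probe sets. Calls had an adjusted p under 0.05, and p-values measure the spread between mice. Python 3.11.15 with pandas 2.3.3 and matplotlib 3.10.9 made the figures and motif counts. Promoter windows were RefSeq's on GRCm38.p6, and the first listed window stood for a gene.

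The members and gene lists were chosen with earlier results of these data known. Members given with every array's value were, in each class and contrast, up to 4 called members with the largest difference. Other pathway genes were named from those called in at least 1 comparison. Not every called gene of those lists is named, and those named are not always the ones with the largest difference. Alternatives were quantile normalisation, median centring, a trend with robust moderation, an ordinary linear model, weighting of arrays, removal of dim probe sets (kept if above the overall median in at least 5 arrays, which left 11898), only the groups compared, the replicate number as a block, a 1.5-fold minimum, each array left out, and, chosen after seeing the data, members with a mean signal under 10. The fit was tested on simulated data.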

Additional observations from a re-analysis of the deposited data

Results flagged for a closer look

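In 11 of 156 sets of 5 arrays (39 members in 4 groups), 1 array stood apart from the other arrays of its group by more than 0.71 of the group's range; chance alone gives about 1 in 20 such sets. The values are log2 signals. In fasted Mcl1KO livers, C1s1 was 8.90 in 1 array, against 8.44 to 8.51 in the others. In fed Mcl1KO livers, the lone arrays were at 10.03 for F5 (others 9.93 to 9.95), 9.06 for C1s1 (9.20 to 9.23) and 7.9 for Masp1 (8.14 to 8.19). In fasted WT livers, they were at 8.39 for F9 (8.08 to 8.12), 7.36 for F13b (7.67 to 7.79), 11.23 for Kng1 (11.40 to 11.45) and 8.56 for C1ra (8.38 to 8.41). In fed WT livers, they were at 10.04 for Proc (10.19 to 10.24), 9.72 for C4b (9.97 to 10.04) and 10.35 for C8g (10.02 to 10.09), all 3 in the first array of that group. No member's fasting difference was called as different between the genotypes (0 of 39, limma, with 8 at an unadjusted p under 0.05).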

How the results depend on the processing

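Of 46 called member results, 29 were called under every alternative, 17 were lost under at least 1 and 0 changed sign; of 149 uncalled ones, 15 were called under at least 1. Coagulation calls for fasting in WT were 6 in an ordinary linear model (3 higher, 3 lower), against 3, and for Mcl1KO minus WT in fasted livers 2 with only those groups fitted, against 4. For fasting in Mcl1KO the ordinary linear model called 28 members of the 2 classes together, against 24. Complement calls for fasting in WT were 6 with a 1.5-fold minimum, against 12. The median fasting difference of coagulation members in WT was 0.044 among members with a mean under 10, against -0.07 over all. The cause was not tested, except that the minimum removes small differences by its construction.

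With 1 array left out in turn, coagulation calls ranged over 8 to 9 for fasting in Mcl1KO, 2 to 3 for fasting in WT, 3 to 5 for fasted Mcl1KO minus WT and 0 to 2 for the interaction. Complement calls ranged over 15 to 16, 9 to 12, 2 to 4 and 0 to 1 for the same comparisons. The interaction calls came without the third fasted Mcl1KO array. Over all probe sets the interaction called 331 without that array, against 30, and the counts for fasted Mcl1KO minus WT ran between 399 with only those groups fitted and 1707 without that array, against 1109.

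Same-numbered replicates did not deviate together (median correlation -0.02, range -0.19 to 0.17, above 0.1 in 1 of 30 pairs). Of 20 arrays, 3 correlated best with their own number. The numbers were not used as pairs, although a lack of shared deviation cannot show how the mice were matched or handled. With the replicate number as a block, complement calls were 16 for fasting in Mcl1KO, 11 for fasting in WT, where C2 had an adjusted p of 0.0548, and 3 for fasted Mcl1KO minus WT; coagulation calls were 8, 3 and 4. No member had several probe sets, so averaging them changed nothing. With 5 mice a group, a difference near the median SE cannot be told from 0.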

Other observations

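The hepatocyte transcription factors and acute phase proteins, which are made in the same cells as the members, were also measured. Of 19 hepatocyte transcription factors, 3 rose and 6 fell with fasting in Mcl1KO, and 2 rose and 2 fell in WT. That is 47.4% and 21.1% of the list called, beside 14.4% and 6.79% of all probe sets. Between the fasted genotypes 3 of the 19 were lower and 0 higher in Mcl1KO (15.8%, beside 4.99% of all probe sets). Only some of the called factors are named here. Ppargc1a, a coactivator of the fasting response, rose by 1.64 in Mcl1KO and 1.80 in WT (adjusted p = 5.01e-05 and 4.00e-05), and Cebpd by 1.18 and 1.03 (adjusted p = 0.00221 and 0.0139, the WT call lost on leaving out either of 2 arrays, adjusted p up to 0.0545). Cebpa, a factor of mature hepatocytes, fell by 0.97 in Mcl1KO and 0.58 in WT (adjusted p = 1.87e-05 and 0.00885), and was lower in fasted Mcl1KO than in fasted WT livers by 0.59 (adjusted p = 0.0152). Dbp, a circadian factor, fell by 2.73 in Mcl1KO (adjusted p = 4.84e-06), with an uncalled difference of -1.07 in WT (adjusted p = 0.0675), and was lower in fasted Mcl1KO than in fasted WT by 1.89 (adjusted p = 0.00329). Hnf4a rose by 0.48 in Mcl1KO (adjusted p = 0.0122), and its WT difference was 0.43 (adjusted p = 0.0501).

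Of 23 acute phase genes, 5 rose and 10 fell with fasting in Mcl1KO, and 4 rose and 6 fell in WT. That is 65.2% and 43.5% of the list called, beside 14.4% and 6.79% of all probe sets. Between the fasted genotypes 1 of the 23 was lower and 0 were higher in Mcl1KO (4.35%, beside 4.99% of all probe sets). Fasting differences in the list ran from -3.25 to 1.16 in Mcl1KO and from -1.71 to 1.33 in WT, and only some of the genes are named here. The serum amyloid A genes Saa2, Saa1, Saa4 and Saa3 fell by 3.25, 2.69, 2.55 and 1.94 in Mcl1KO (adjusted p = 5.60e-06, 1.43e-04, 2.10e-06 and 6.10e-07). In WT, Saa1 and Saa3 fell by 1.48 and 0.76 (adjusted p = 0.0479 and 0.0300, lost on leaving out any 1 of 13 and of 6 arrays), and Saa2 and Saa4 had uncalled differences of -1.28 and -0.68 (adjusted p = 0.0687 and 0.237). In fed livers, Mcl1KO minus WT was positive for 18 of the 23 genes and called for 0, against 0.036% of all probe sets (limma, 7 with an unadjusted p under 0.05). The mean of the list was 8.21 ± 0.36 in fed Mcl1KO and 7.74 ± 0.21 in fed WT livers (SD). By array it was 8.58, 7.93, 7.85, 8.62 and 8.10 in fed Mcl1KO, against 7.69, 8.03, 7.55, 7.58 and 7.87 in fed WT livers. The fed groups overlapped. Lbp, the lipopolysaccharide-binding protein, rose by 1.16 in Mcl1KO and 1.18 in WT (adjusted p = 8.92e-07 and 1.53e-06), and Itih3 by 0.74 and 0.70 (adjusted p = 6.36e-05 and 2.86e-04).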
